A study of Homo sapiens with 2 samples.

Results

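Metformin, a drug for type 2 diabetes, is known for lowering the output of glucose by the liver. The 9 genes described here, out of 27685 gene IDs listed in each library, cover the entry to gluconeogenesis and the making and breaking of glycogen. They are PCK2, FBP1, PYGB, PYGL, GYS1, GBE1, UGP2, PGM1 and PPP1R3B, chosen by name as genes of these routes and found by NCBI gene ID. The choice was made with earlier results of these data known. Both groups are H1299, an established human lung carcinoma line (non-small cell) used at passages 10 to 15: 1 library came from cells given 5 mM metformin and 1 library from untreated cells (control). How long the cells were treated is not stated. Levels are in TPM, transcript shares scaled to 1000000 per library, which correct for transcript length. With 1 library per group there is no replicate check and no test, and each 95% interval covers counting error alone.

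The metformin library had 6.40 Gb of aligned sequence, or about 31.7 M read pairs, and the control library 5.80 Gb, or about 28.7 M. The epithelial keratin KRT8 had 521 TPM in metformin and 269 TPM in control (1.94-fold), KRT18 had 954 TPM in metformin and 553 TPM in control (1.72-fold), and VIM, vimentin, had 4962 TPM in metformin and 4378 TPM in control (1.13-fold). PECAM1 and HBB of endothelium and blood and MYH7 and CKM of muscle were listed at 0 in both libraries, PTPRC, ALB and APOA1 at 0.178 TPM or less, while CD68 had 115 TPM in metformin and 148 TPM in control.

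Phosphoenolpyruvate carboxykinase turns oxaloacetate into phosphoenolpyruvate, the step by which carbon from the citric acid cycle enters gluconeogenesis; PCK1 encodes the cytosolic enzyme of liver and kidney, and PCK2 the mitochondrial one, which many tumour lines express. Glycogen is built from glucose 1-phosphate through UDP-glucose by glycogen synthase and the branching enzyme, and is taken apart by glycogen phosphorylase. The balance of both is set by phosphorylation, which protein phosphatase 1 reverses once a glycogen-targeting subunit has brought it to the particle.

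PCK2 had 89.9 TPM in metformin (95% counting interval 86.5 to 93.3) and 33.8 TPM in control (31.7 to 36.1). The metformin library was 2.66-fold higher (95% counting interval 2.46 to 2.87), a difference of 1.38 on the log2(TPM + 1) scale, which was used for all counts of genes and on which a gene was counted when it lay 2-fold away from control (a value of 1, up or down). In a bulk library, fewer cells with a transcript and less of it per cell cannot be told apart. PCK2 was the only 1 of the 9 genes past that limit, in either direction. Across the 14078 measured genes, those that reached 1 TPM in either library, 213 (1.51%) were higher and 175 (1.24%) lower by that rule. After centring on the median gene these counts were 270 and 114, so that the share of higher genes among them was 70.3% in place of 54.9%. Of the measured genes, 78 had a higher difference than PCK2. Of the 8889 genes that reached 10 TPM in each library, 21 had a TPM ratio at or above that of PCK2, counting PCK2 itself. By level it was the 1924th gene of the metformin library and the 5015th of the control library. PCK2 (NCBI gene 5106) lies on the plus strand of chromosome 14 at 24563340 to 24573341 of hg19, and no other gene with reads in control overlaps it there.

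PCK1, the cytosolic paralog, was listed at 0 TPM in both libraries, so PCK2 held all of the listed carboxykinase transcript. The next step after PCK2 that gluconeogenesis does not share with glycolysis also had no transcript listed: FBP1, fructose-1,6-bisphosphatase of liver and kidney (NCBI gene 2203, chromosome 9, 97365421 to 97402531 of hg19), stood at 0 in both libraries, as did its muscle paralog FBP2. Of the 9 genes of the gluconeogenesis list, 4 were measured, and the other 5 (PCK1, FBP1, FBP2 and the glucose-6-phosphatases G6PC1 and G6PC2) were listed at 0 in both libraries. PC, pyruvate carboxylase, which makes oxaloacetate in mitochondria, had 3.79 TPM in metformin and 3.57 TPM in control, a ratio of 1.06 (0.873 to 1.30). G6PC3, the widely expressed glucose-6-phosphatase, had 75.6 TPM in metformin and 74.7 TPM in control. SLC37A4, the glucose-6-phosphate carrier of the endoplasmic reticulum, had 29.8 TPM in metformin and 29.1 TPM in control. PCK2 thus stood apart in size from the 3 others: the ratio of PCK2 to PC transcripts was 23.7 in metformin (20.7 to 27.1) and 9.49 in control (8.11 to 11.1).

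PCK2 is known as a target of ATF4, the transcription factor of the amino acid and mitochondrial stress response. ATF4 itself had 683 TPM in metformin and 531 TPM in control, a ratio of 1.29 (1.25 to 1.32). ASNS, asparagine synthetase and a known ATF4 target, had 791 TPM in metformin and 330 TPM in control, a ratio of 2.40 (2.34 to 2.45). DDIT3, which encodes the stress factor CHOP, had 129 TPM in metformin and 70.2 TPM in control, a ratio of 1.84 (1.68 to 2.0). The ratio of PCK2 lay above those of all 3, with a counting interval that did not overlap theirs. For ASNS the gap was narrow, 2.45 at its upper end against 2.46 at the lower end of PCK2. GC content was 42.7% for the ASNS transcript and 58.8% for that of PCK2. Whether their order holds once the trend with GC content and length is removed was not tested. The 5 protein-coding genes whose levels lay nearest to those of PCK2, by distance on the log2(TPM + 1) scale over the 2 libraries, were NFKBIA (90.2 TPM in metformin, 34.0 in control), SCAND1 (94.4 TPM in metformin, 34.4 in control), TRIB3 (98.4 in metformin, 35.5 in control), SSR3 (100.6 in metformin, 31.4 in control) and MRPL10 (87.6 in metformin, 39.2 in control). Likeness over 2 libraries says no more than that the levels are close.

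**Figure D1:**
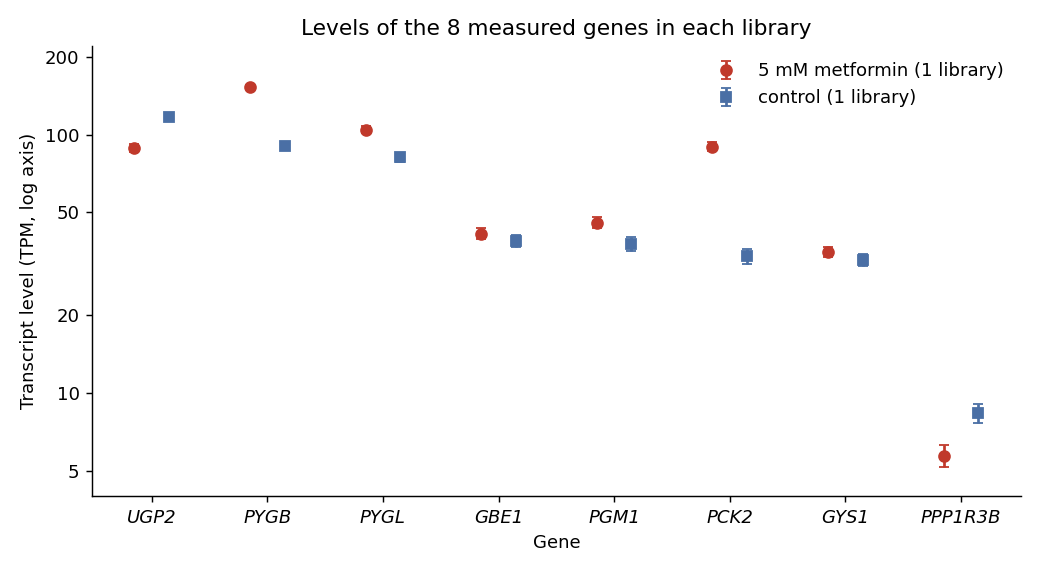
Level of each of the 8 measured genes in TPM (log axis) in the metformin library (red circles, left) and the control library (blue squares, right), ordered by level in control; bars are 95% counting intervals, and FBP1, at 0 in both, is not drawn. PCK2 stands at 89.9 TPM in metformin and 33.8 TPM in control, while GBE1 and GYS1 lie within 1.08-fold between the libraries.

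The upstream sequences of PCK2, of PYGB and of UGP2 are printed. These had the highest, the second highest and the lowest difference of the 8 genes with a window in the RefSeq promoter table (build GRCh38.p14). Those 8 are not the 8 measured genes. They include FBP1, listed at 0 in both libraries, and lack PPP1R3B, whose difference of -0.47 was lower than that of UGP2. Each sequence was chosen by its difference. Each is the 250 bases before the annotated start of a transcript, 5′ to 3′ on the plus strand, at chr14:24094061-24094310 for PCK2, chr20:25247835-25248084 for PYGB and chr2:63840719-63840968 for UGP2 (the more upstream of its 2 windows). Capitals mark CCAAT, the core bound by NF-Y, and GGGCGG, the GC box bound by SP1, on either strand.
PCK2: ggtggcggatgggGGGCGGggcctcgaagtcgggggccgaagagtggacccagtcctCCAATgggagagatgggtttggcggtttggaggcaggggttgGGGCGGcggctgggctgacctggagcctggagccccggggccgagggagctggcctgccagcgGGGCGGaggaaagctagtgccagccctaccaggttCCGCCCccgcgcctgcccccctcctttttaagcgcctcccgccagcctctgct
PYGB: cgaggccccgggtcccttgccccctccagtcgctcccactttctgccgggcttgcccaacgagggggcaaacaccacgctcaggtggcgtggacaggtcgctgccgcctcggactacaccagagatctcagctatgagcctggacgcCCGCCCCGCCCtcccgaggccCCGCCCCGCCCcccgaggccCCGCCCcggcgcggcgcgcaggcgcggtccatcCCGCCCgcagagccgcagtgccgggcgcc
UGP2: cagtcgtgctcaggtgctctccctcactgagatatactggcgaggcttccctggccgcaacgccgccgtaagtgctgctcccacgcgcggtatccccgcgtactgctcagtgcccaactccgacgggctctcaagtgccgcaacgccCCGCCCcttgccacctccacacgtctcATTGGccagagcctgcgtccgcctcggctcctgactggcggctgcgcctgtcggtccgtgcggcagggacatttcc
The PCK2 window held 4 GC boxes and 1 CCAAT, the PYGB window 6 GC boxes and no CCAAT, and the UGP2 window 1 of each. In PYGB, 2 pairs of GC boxes overlap by 1 base. Over all 35116 windows of the table, which run from 250 bases before a start to 50 after it, 45.0% held a GC box and 34.6% a CCAAT on either strand. Of the 11 windows of these 8 genes, 10 held a GC box and 3 a CCAAT. The element TGATGNAA, the form in which C/EBP and ATF factors bind together, was searched on both strands and was in none of the 11 windows, against 3.62% of all windows, and the cAMP response element TGACGTCA was in none, against 1.85%. The absence says only that these letters are not in these windows.

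Glycogen breakdown begins with glycogen phosphorylase, which releases glucose 1-phosphate from the ends of the chains. Its brain isoform PYGB had 153 TPM in metformin (149 to 156) and 90.4 TPM in control (87.7 to 93.0). That made it the second highest of the 9 genes in difference, 1.69-fold higher in metformin (1.63 to 1.75), or 0.75 on the log2(TPM + 1) scale. The liver isoform PYGL had 104 TPM in metformin (101 to 108) and 81.5 TPM in control (78.5 to 84.6), 1.28-fold higher (1.22 to 1.35), or 0.35 on that scale. Both isoforms were thus higher in the metformin library, but unequally, and neither reached 2-fold. PYGB (NCBI gene 5834) lies on the plus strand of chromosome 20 at 25228706 to 25278648 of hg19, and its last 3270 bases are shared with ABHD12 on the other strand, whose reads cannot be told apart from its own if counting ignored strand, and which had 27.8 TPM in metformin and 27.3 TPM in control. PYGL (NCBI gene 5836) lies on the minus strand of chromosome 14 at 51371935 to 51411248.

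The ratio of PYGB to PYGL transcripts, which does not depend on how the libraries are scaled, was 1.46 in metformin (1.41 to 1.52) and 1.11 in control (1.06 to 1.16). The shift between the libraries was 1.32-fold (1.24 to 1.4). PYGM, the muscle isoform, had 0.418 TPM in metformin and 0.238 TPM in control, under 1 TPM in both. The 3 phosphorylases summed to 257 TPM in metformin and 172 TPM in control, and PYGB made up 59.3% of that sum in metformin and 52.5% in control. PYGL levels were 2.97 times those of GYS1 in metformin and 2.50 times in control, and PYGB levels 4.34 times in metformin and 2.76 times in control.

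Other genes of glycogen breakdown lay on both sides of 0. Of the 9 genes of the whole list reported here, PYGB and PYGL included, 7 were measured, with 5 above 0 and 2 below. Their median log2 difference was 0.34, against -0.08 over all measured genes, of which 40.3% were above 0. Those above 0 were PYGB at 0.75, PHKA1 at 0.37, PYGL at 0.35, GAA at 0.34 and PHKA2 at 0.12. The median was 0.22 without the GC and length trend and 0.20 over all 9 with no minimum, and PHKB lay above 0 after centring and without the trend. PHKA1, a regulatory subunit of the phosphorylase kinase that switches phosphorylase on, had 35.9 TPM in metformin and 27.6 TPM in control, a ratio of 1.30 (1.23 to 1.37). Its paralog PHKA2 had 16.2 TPM in metformin and 14.9 TPM in control. GAA, the lysosomal acid glucosidase that degrades glycogen in lysosomes, had 46.0 TPM in metformin and 36.1 TPM in control, a ratio of 1.27 (1.19 to 1.36). The kinase subunits PHKB and PHKG2 stood at 0.965 and 0.932 of control, with intervals that included 1.

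On the side of synthesis no gene was past 2-fold, against 1.51% of all measured genes higher and 1.24% lower by that rule. UGP2 was lower in metformin while PGM1 was higher. GYS1, the glycogen synthase of muscle and most other tissues (NCBI gene 2997, chromosome 19, 49471382 to 49496610, minus strand), had 35.2 TPM in metformin (33.5 to 36.9) and 32.7 TPM in control (31.0 to 34.4), a ratio of 1.08 (1.0 to 1.16). Its liver paralog GYS2 had 0.0232 TPM in metformin and 0.0524 TPM in control, so GYS1 held 99.9% of the synthase transcript in metformin and 99.8% in control. GBE1, the branching enzyme (NCBI gene 2632, chromosome 3, 81538850 to 81810950, minus strand), had 41.4 TPM in metformin (39.5 to 43.5) and 38.8 TPM in control (36.8 to 40.9). Its ratio of 1.07 had a counting interval of 0.993 to 1.15, and the ratio of GBE1 to GYS1 was 1.18 in metformin and 1.19 in control. After centring on the median gene the ratios were 1.14 for GYS1 (1.07 to 1.23) and 1.13 for GBE1 (1.06 to 1.22), so whether the interval of GBE1 held 1 depended on the scaling. Their log2 differences of 0.10 for GYS1 and 0.09 for GBE1 were 0.03 and 0.27 once the trend with GC content and length was removed.

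UGP2, which makes UDP-glucose, the donor for glycogen synthase (NCBI gene 7360, chromosome 2, 64068098 to 64118696, plus strand), had 88.8 TPM in metformin (85.4 to 92.2) and 117 TPM in control (113 to 121). It stood at 0.759 of control (0.720 to 0.80), a log2 difference of -0.39. That difference was -0.16 after removal of the trend with GC content and length; the UGP2 transcript has a GC content of 39.2%, the lowest of the 9. UGP2 was the most abundant of the 9 genes in control, while in metformin PYGB and PYGL lay above it and PCK2 beside it: the ratio of PCK2 to UGP2 was 1.01 in metformin (0.959 to 1.07) and 0.289 in control (0.269 to 0.312). These places hold for TPM: by deposited coverage UGP2, at 31.7 in metformin and 37.0 in control, lay below PCK2, at 188 in metformin and 59.0 in control. PGM1, the phosphoglucomutase that joins glucose 1-phosphate to glucose 6-phosphate in both directions (NCBI gene 5236, chromosome 1, 64058947 to 64125916, plus strand), had 45.7 TPM in metformin (43.4 to 48.1) and 37.7 TPM in control (35.5 to 40.1), a ratio of 1.21 (1.12 to 1.31). Its log2 difference of 0.27 was 0.29 with the deposited FPKM and 0.17 with the deposited coverage per aligned Gb in place of TPM. Coverage of PGM1 was low, 8.25 in metformin and 6.03 in control, so the 1 added before taking log2 weighed more there. PGM2, a relative of PGM1, went the other way, with 55.7 TPM in metformin and 67.6 TPM in control, a ratio of 0.823 (0.779 to 0.870). The log2 difference of PGM2, -0.28, was -0.05 after removal of the trend with GC content and length, while that of PGM1 was 0.29. The 3 phosphoglucomutase genes PGM1, PGM2 and PGM2L1 summed to 105 TPM in metformin and 109 TPM in control, and PGM1 made up 43.5% of the sum in metformin and 34.6% in control.

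In the order of levels in metformin, PYGB was followed by PYGL, then by PCK2 and UGP2, whose counting intervals overlap, then by PGM1 and GBE1, which overlap narrowly, then by GYS1 and PPP1R3B. In control UGP2 was followed by PYGB, PYGL and then GBE1, PGM1, PCK2 and GYS1; in this last group GBE1 and PGM1 had overlapping intervals, as did PGM1 and PCK2, and PCK2 and GYS1. PPP1R3B was by TPM the lowest of the 8 measured genes in both libraries. These orders hold for TPM, and the intervals rest on read pairs estimated from FPKM. By deposited coverage PGM1 was the lowest, at 8.25 in metformin and 6.03 in control, against 15.2 and 19.6 for PPP1R3B. Of the 9 glycogen synthesis genes listed, 7 were measured, with 5 above 0 and 2 below and a median of 0.09, against 40.3% of all measured genes above 0. That median was 0.18 after centring and 0.27 without the GC and length trend, where it lay above the 0.22 of the breakdown list. GYG1, glycogenin, the protein primer of the chain, had 134 TPM in metformin and 121 TPM in control, a ratio of 1.11 (1.08 to 1.14).

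**Figure D2:**
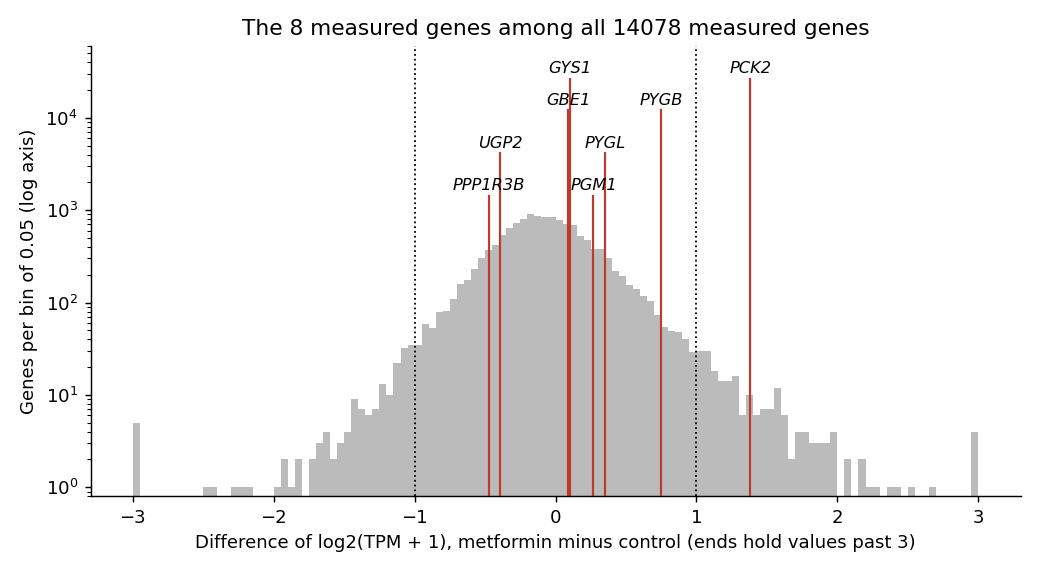
Histogram of log2(TPM + 1) differences (metformin minus control) over all 14078 measured genes (log axis of genes per bin), with the 8 measured genes marked by red lines and 2-fold by dotted lines. PCK2 at 1.38 is past the upper dotted line, PYGB at 0.75 lies below it, and PPP1R3B at -0.47 and UGP2 at -0.39 lie left of 0 within the bulk, with 11.5% and 16.4% of genes below them.

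PPP1R3B encodes the subunit known as GL, which brings protein phosphatase 1 to glycogen and so favours synthesis. It had 5.73 TPM in metformin (5.21 to 6.30) and 8.36 TPM in control (7.68 to 9.08), 0.686 of control (0.604 to 0.779), a log2 difference of -0.47 that was -0.32 with a pseudocount of 5. PPP1R3B (NCBI gene 79660) lies on the minus strand of chromosome 8 at 8993764 to 9009152 of hg19. The rest of its family was low in both libraries, and PPP1R3A, the muscle subunit, was listed at 0 in each. PPP1R3C, also called PTG, had 1.58 TPM in metformin and 2.74 TPM in control, a ratio of 0.576 (0.402 to 0.818). PPP1R3F had 0.735 TPM in metformin and 1.39 TPM in control, so that it counted as measured through the control library alone, and PPP1R3D had 4.39 TPM in metformin and 5.63 TPM in control. PPP1R3E stood at 0.823 of control with an interval that included 1, and PPP1R3G at 1.30-fold with one that also included 1. Over all 7 subunits with no minimum, 5 were below 0, 1 above and 1 at 0 in both libraries, with a median of -0.30; of all measured genes 59.7% were below 0. The same 5 were below 0 under both other scalings of the libraries and without the GC and length trend. Summed over the family the level was 16.8 TPM in metformin and 22.8 TPM in control. None of these genes was past 2-fold, a limit passed upward by 1.51% and downward by 1.24% of all measured genes.

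The enzyme these subunits carry is encoded by 3 genes, most of whose product serves other roles in the cell. PPP1CC had 161 TPM in metformin and 256 TPM in control, a ratio of 0.627 (0.606 to 0.649). PPP1CB had 41.1 TPM in metformin and 52.3 TPM in control, a ratio of 0.786 (0.746 to 0.827). The PPP1CB ratio depended on the processing: its log2 difference of -0.34 shrank to -0.04 once GC content and length were allowed for. For PPP1CC the same step moved -0.67 to -0.46. PPP1CA had 288 TPM in metformin and 298 TPM in control, a log2 difference of -0.05 that was 0.04 after centring. The glycogen synthase kinases GSK3A and GSK3B, which phosphorylate the synthase, both stood at 0.997 of control. NHLRC1, the ubiquitin ligase malin of the Lafora pathway of glycogen quality control, had 3.16 TPM in metformin and 5.13 TPM in control, whereas EPM2A, the laforin phosphatase of that pathway, had 8.0 TPM in metformin and 7.45 TPM in control. STBD1, which links glycogen to membranes, had 12.2 TPM in metformin and 8.44 TPM in control, a ratio of 1.45 (1.23 to 1.72). Of the 15 genes on this control list 14 were measured, 3 above 0 and 11 below, with a median of -0.26, while 59.7% of all measured genes were below 0. After centring, PPP1CA, GSK3A and GSK3B turned, so that 8 of the 14 were below 0, against 49.1% of all measured genes, and the median was -0.17; it was -0.13 with a pseudocount of 5.

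**Figure D3:**
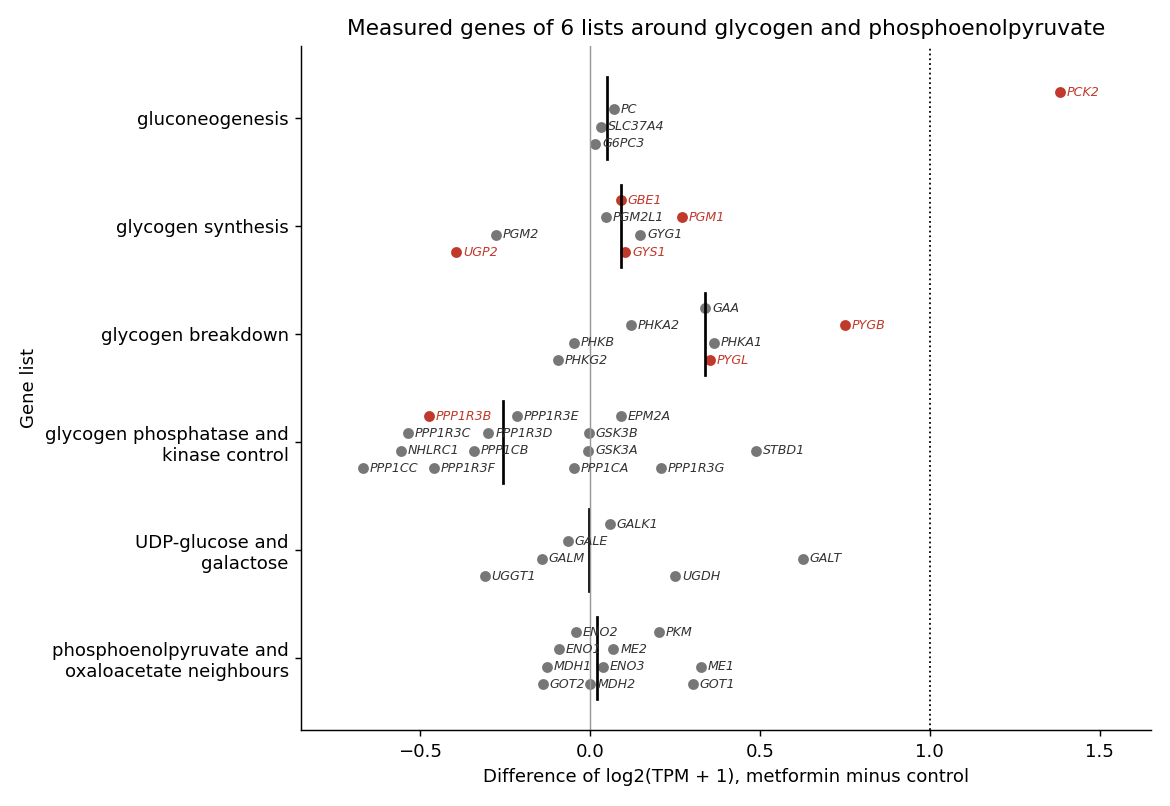
Log2(TPM + 1) difference (metformin minus control) for each measured gene of 6 lists (1 row of points per list; vertical spread only separates the labels), with the 8 measured genes described here in red, list medians as black bars and 2-fold as a dotted line. PCK2 alone is past 2-fold, against 1.51% of all measured genes higher and 1.24% lower by that rule. The control list holds 11 of its 14 genes below 0, or 8 after centring.

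Of the 10 measured genes on the list of enzymes around phosphoenolpyruvate and oxaloacetate, none was past 2-fold. Among all measured genes 1.51% were higher and 1.24% lower by that rule. ENO1, the main enolase, which makes phosphoenolpyruvate or takes it back toward glucose, had 2948 TPM in metformin and 3140 TPM in control. PKM, the pyruvate kinase that consumes phosphoenolpyruvate, had 2135 TPM in metformin and 1856 TPM in control. PKLR, the liver and red cell pyruvate kinase, was listed at 0 in both. The malate dehydrogenase MDH2, which makes mitochondrial oxaloacetate, had 497 TPM in metformin and in control, with a counting interval of 0.978 to 1.02 for the ratio. The cytosolic aspartate aminotransferase GOT1 was 1.24-fold higher in metformin (1.17 to 1.30) and its mitochondrial partner GOT2 stood at 0.907 of control (0.870 to 0.946). ME1 had the highest difference of the list, with 12.3 TPM in metformin and 9.59 TPM in control, a ratio of 1.28 (1.12 to 1.46). MDH1 stood at 0.916 of control (0.866 to 0.968). Of the 11 listed 10 were measured, 6 above 0 and 4 below, with a median of 0.02, against 40.3% of all measured genes above 0. After centring, ENO2 turned above 0 and the median was 0.11. Without the GC and length trend, MDH1 turned above 0 and ENO3 below, with 6 above, 4 below and a median of 0.02.

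UDP-glucose made by UGP2 is also used outside glycogen. UGDH, which oxidises it to UDP-glucuronate, had 62.1 TPM in metformin and 52.0 TPM in control, a ratio of 1.19 (1.12 to 1.27). UGGT1, which uses it to tag unfolded glycoproteins, had 36.4 TPM in metformin and 45.4 TPM in control, a ratio of 0.802 (0.773 to 0.833). GALT, the galactose enzyme that exchanges UDP-glucose for UDP-galactose, had 27.6 TPM in metformin and 17.6 TPM in control, 1.57-fold higher (1.39 to 1.79). Of these 6 genes 3 were above 0 and 3 below. Over all 59 listed genes, the 9 included, 48 were measured, 26 of them above 0 and 22 below. PCK2 was the only 1 of the 48 past 2-fold, where 1.51% of all measured genes were higher and 1.24% lower by that rule. The share of all measured genes above 0 was 40.3%. After centring on the median gene the split of the listed genes was 32 above and 16 below, with 50.9% of all measured genes above 0, and without the GC and length trend it was 24 and 24, with 47.7%.

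**Figure D4:**
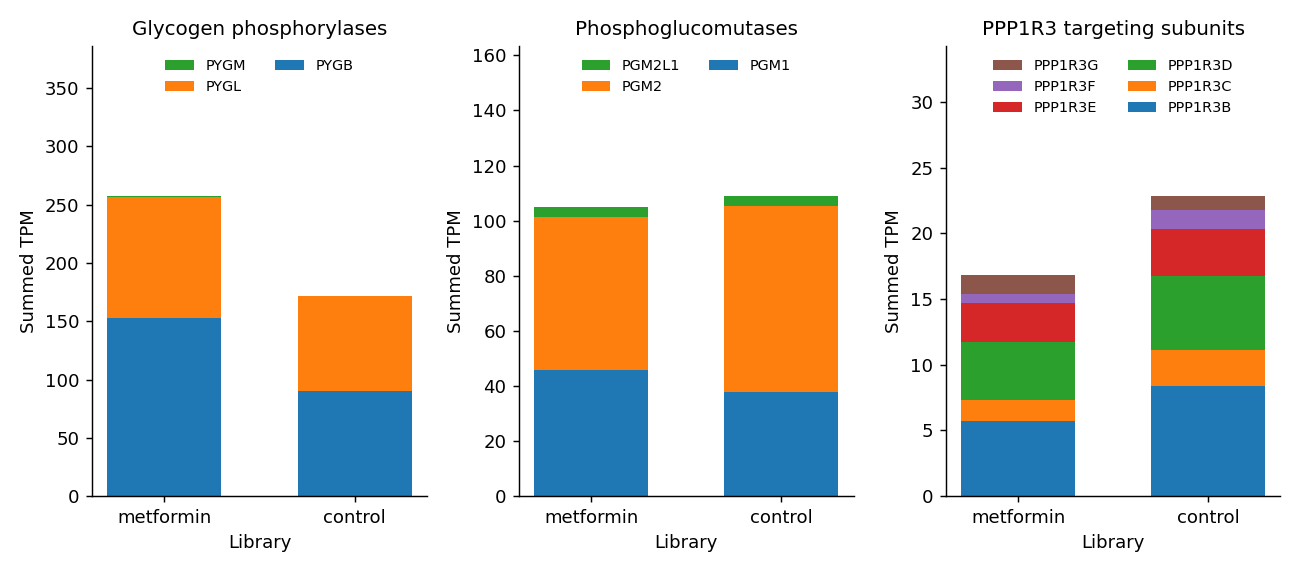
Summed TPM of the glycogen phosphorylases, the phosphoglucomutases and the PPP1R3 targeting subunits in the metformin library (left bar) and the control library (right bar), stacked by gene, with 1 library per bar and no error shown. PYGB makes up 59.3% of the phosphorylase sum in metformin and 52.5% in control, and the PPP1R3 sum is 16.8 TPM in metformin and 22.8 TPM in control.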

How the data were processed

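The 9 genes and the gene lists were chosen with earlier results of these data known. Per the labels' protocols, TruSeq Stranded mRNA LT libraries were sequenced and the reads mapped to hg19 with Bowtie2; per the submitters' processing notes, Trimmomatic 0.38 and HISAT2 were used with hg19 and GRCh37. Neither the program behind the abundances nor its use of strand is stated. Per the file headers, the authors deposited TPM (summing to 1000000 per library), FPKM and coverage per gene. TPM gave all values, FPKM and coverage the depth and alternatives.

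Symbols came from a RefSeq table (GRCh38.p14, names only; 27559 of 27685 IDs matched), and rows of 1 ID were summed. Differences are log2(TPM + 1), metformin minus control. A gene was measured at 1 TPM or more in a library. Aligned bases came from the largest coverage to FPKM ratio. Read pairs per gene assumed 202 bases per pair (the base total seen most often among short genes, 45 of 1141 in metformin and 35 of 1201 in control) and took transcript lengths from GENCODE 44 on GRCh37 (canonical transcripts). The 95% intervals are exact (Poisson for a level, Clopper-Pearson for a ratio of libraries) or, for ratios between genes, from the normal approximation on the log scale. They cover counting error only, not variation between cultures, and PCR duplicates can make them too narrow. The genes named are the 9, the listed genes and 3 genes of the ATF4 response, with the 5 nearest to PCK2 in level among protein-coding genes with 1 row, markers of cell types, and ABHD12, which overlaps PYGB and was chosen once its values were known. Some genes of the lists are not reported here and were left out of all list counts. The steps were tested on simulated counts. Python 3.11.15, pandas 2.3.3 and scipy 1.17.1 were used.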

Additional observations from a re-analysis of the deposited data

How the results depend on the processing

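Under 10 alternatives none of the 8 measured genes changed direction. PCK2 remained past 2-fold in each, with a log2 difference between 1.29 and 1.47. Not all of these could change a direction. Another minimum, or the highest row alone, left the differences of the 8 genes as they were, and another pseudocount cannot turn a sign. The other ranges were 0.68 to 0.84 for PYGB, 0.34 to 0.44 for PYGL, 0.17 to 0.36 for PGM1, 0.03 to 0.19 for GYS1, 0.08 to 0.27 for GBE1, -0.40 to -0.16 for UGP2 and -0.54 to -0.32 for PPP1R3B. The low end of 0.17 for PGM1 came with coverage, where the added pseudocount weighed more. The excess of PYGB over PYGL, 0.40 on the log2(TPM + 1) scale, was 0.27 without the GC and length trend. Over all genes, the counts of 213 higher and 175 lower were 389 and 353 with a pseudocount of 0.1, 58 and 45 with a pseudocount of 5, 113 and 67 with FPKM, 108 and 59 with coverage, and 121 and 115 at a minimum of 5 TPM. The lower count was 114 after centring on the median (a shift of -0.09), 113 with trimmed mean scaling and 74 without the GC and length trend. Fewer genes enter at a minimum of 5 TPM, and a larger pseudocount shrinks differences of low genes. FPKM runs on a smaller scale than TPM (39.0 against 89.9 for PCK2 in metformin), and coverage was brought to the scale of FPKM. The same pseudocount and minimum therefore weigh more with these 2 columns. How much of their lower counts this makes up was not tested, nor was the cause for the others. No paired analysis was possible because each group has 1 library. With no replicates, leaving 1 out was not possible either. Depth limits PPP1R3F and PYGM, with an estimated 35 and 16 read pairs in metformin.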

Other observations

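The deposited coverage, set against FPKM, differed between the libraries for PCK2. Among 2353 genes with 1 RefSeq transcript, 99.3% had the same ratio of coverage to FPKM in control, within 0.1%, which is also the largest ratio of the library. Genes with several transcripts can fall short of it. For PCK2, with 9 RefSeq transcripts, the ratio was 75.3% of the largest in metformin and 70.9% in control. A change of that size or more was present in 304 of 9604 genes with more than 1 transcript (3.17%). For the other 7 measured genes it differed by 0.413 percentage points or less. UGP2 and PGM1 lay much further from the largest ratio than PCK2, but at the same place in both libraries: UGP2 at 12.8% in metformin and 12.9% in control, and PGM1 at 6.49% in each. How this bears on their levels in TPM and their counting intervals was not tested. Which PCK2 transcripts were present was not tested, since the tables list genes only.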
